A study of Homo sapiens with 13 samples.

Results

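FOXA1 peaks on chromosomes 16, 20 and 22 are the sites on these 3 human chromosomes at which the transcription factor FOXA1 was called bound in the endometrial cancer cell lines Hec1A and Ishikawa. They were chosen by the chromosome column of the 2 peak lists, and every row on the 3 chromosomes is a member. There were 952 members among the 13252 Hec1A peaks (7.18%) and 2845 among the 54855 Ishikawa peaks (5.19%), so 3797 of 68107 listed peaks in all. Chromosome 16 held 402 Hec1A and 1155 Ishikawa peaks, chromosome 20 held 334 and 1035, and chromosome 22 held 216 and 655. No member was left out by a filter on low values. The 3 chromosomes were put together because earlier results of these lists had shown a larger share of the Hec1A list on them. That share and its ratios are therefore a description here, with no test.

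Binding was measured by chromatin immunoprecipitation of crosslinked cells with an FOXA1 antibody, followed by sequencing (ChIP-seq), and the labels name no treatment and no genetic change of either line. Hec1A had 3 FOXA1 ChIP libraries and 2 input libraries, and Ishikawa had 6 FOXA1 ChIP libraries and 2 input libraries. An input library is sheared chromatin that was not immunoprecipitated. Each line is 1 established culture, and its libraries were pooled before calling into 1 list, so no value below has a spread between replicates and no difference was tested between the lines. The 95% intervals given cover counting error only. The pools held 143055568 tags in Hec1A and 343739762 in Ishikawa, and a peak needed 32 tags in Hec1A and 88 in Ishikawa. A tag is the mapped end of a sequenced fragment. Peaks were 254 bp wide in Hec1A and 353 bp wide in Ishikawa.

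FOXA1 belongs to the forkhead family. It is called a pioneer factor because it can bind its sites in compacted chromatin and make them accessible to other factors, among them estrogen, progesterone and androgen receptors in hormone-responsive tissues. Most of its sites in other cell types lie in enhancers away from promoters, and many of them differ between cell types. In the endometrium it is expressed in the epithelium. Hec1A and Ishikawa are both lines from endometrial adenocarcinomas. Chromosomes 16, 20 and 22 are small. Chromosome 22 is acrocentric, with a short arm of repeated sequence that the reference build holds largely as unresolved bases.

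Relative to the whole lists, all 3 chromosomes carried a larger share of Hec1A peaks than of Ishikawa peaks. On chromosome 16 the share was 3.03% of Hec1A peaks and 2.11% of Ishikawa peaks, a ratio of 1.44 (95% interval 1.29 to 1.61). On chromosome 22 it was 1.63% in Hec1A and 1.19% in Ishikawa, a ratio of 1.37 (1.17 to 1.59). On chromosome 20 it was 2.52% in Hec1A and 1.89% in Ishikawa, a ratio of 1.34 (1.18 to 1.51). Among chromosomes 1 to 22 and X these ratios ranked 3, 4 and 5 of 23, after chromosomes 19 and 17. For each Hec1A peak there were 2.87 Ishikawa peaks on chromosome 16, 3.10 on chromosome 20 and 3.03 on chromosome 22, against 4.14 over the whole lists.

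**Figure D1:**
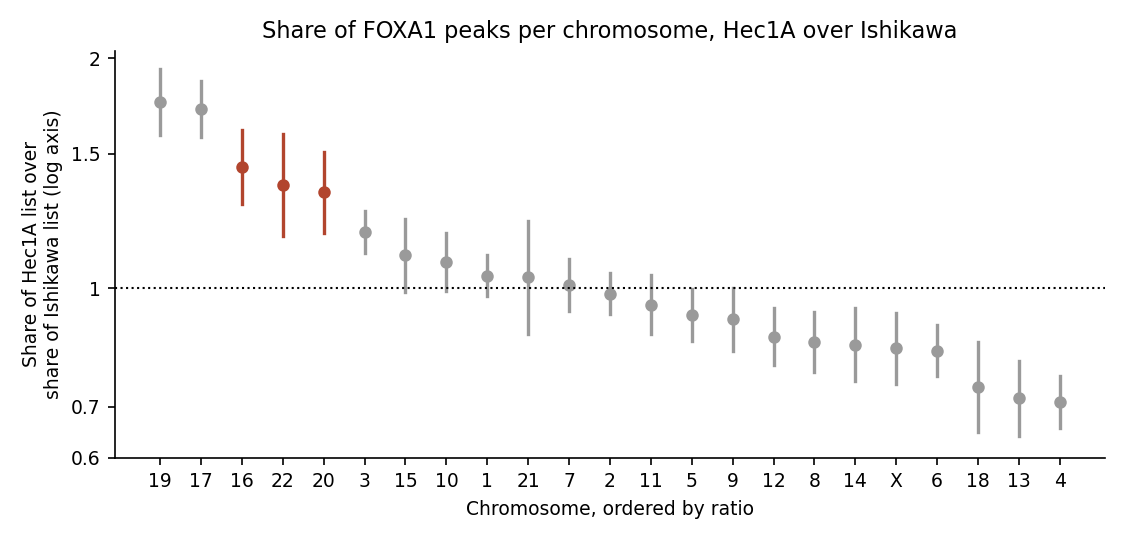
The share of the Hec1A list on each chromosome over the share of the Ishikawa list (vertical log axis), with 95% intervals for counting error, for chromosomes 1 to 22 and X ordered by ratio. Chromosomes 16, 22 and 20 (red) follow chromosomes 19 and 17, with ratios of 1.44, 1.37 and 1.34 and intervals above 1, while the other chromosomes are grey.

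The ratio was built differently on the 3 chromosomes. Densities were taken per Mb between the first and the last peak of a chromosome. Its largest interval without an Ishikawa peak was taken off this length, unless it came before the first Ishikawa peak, as on chromosome 22. Hec1A peaks inside the interval, 12 on chromosome 16 and 5 on chromosome 20, stayed in the count, which raises the Hec1A density there. On chromosome 16 Hec1A had 5.12 peaks per Mb, rank 7 of 23, while Ishikawa had 14.7 per Mb, rank 22. On chromosome 20 the densities were 5.63 per Mb in Hec1A (rank 5) and 17.5 per Mb in Ishikawa (rank 19). On chromosome 22 they were 6.32 per Mb in Hec1A (rank 3) and 19.2 per Mb in Ishikawa (rank 13). Over chromosomes 1 to 22 and X there were 4.68 peaks per Mb in Hec1A and 19.4 in Ishikawa. Chromosome 16 thus had few Ishikawa peaks per Mb, and chromosome 22 had many Hec1A peaks at an Ishikawa density close to that of the genome.

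Arms were separated at the largest interval without an Ishikawa peak, because no centromere annotation of the files' build, hg19, was used. The interval was chr16:35033534-46586415 on chromosome 16 and chr20:26150256-29611758 on chromosome 20. On chromosome 22 it was the leading stretch, chr22:1-17257072, so the chromosome has peaks on the long-arm side only, with 1 Hec1A peak inside the stretch. On the short-arm side of chromosome 16 there were 182 Hec1A and 486 Ishikawa peaks, a share ratio of 1.55 (1.31 to 1.84). On its long-arm side there were 208 Hec1A and 669 Ishikawa peaks, a ratio of 1.29 (1.10 to 1.5). Chromosome 20 had the reverse order. Its short-arm side held 129 Hec1A and 468 Ishikawa peaks, a ratio of 1.14 with an interval that includes 1 (0.940 to 1.39), and its long-arm side held 200 and 567, a ratio of 1.46 (1.24 to 1.71). The intervals of the 2 arms overlap on both chromosomes, and the difference between arms was not tested.

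In peaks per Mb, the short-arm side of chromosome 16 had 5.20 in Hec1A and 13.9 in Ishikawa, and its long-arm side had 4.77 in Hec1A and 15.4 in Ishikawa. On chromosome 20 the short-arm side had 4.96 in Hec1A and 18.0 in Ishikawa, and the long-arm side had 6.01 and 17.0. The long arm of chromosome 22 had 6.36 in Hec1A and 19.4 in Ishikawa. Hec1A density thus ranged from 4.77 to 6.36 over these 5 arms, and Ishikawa density from 13.9 to 19.4.

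The intervals without Ishikawa peaks held 12 Hec1A peaks on chromosome 16 and 5 on chromosome 20. Of the 12 on chromosome 16, 10 lay within 114 kb at the end of the interval, between positions 46386131 and 46500052 (hg19). Their signals, in tags per 10000000 tags of the pool, ran from 4.54 to 95.2 with a median of 28.45. The highest was chr16:46427442-46427696, with 95.2 and a focus ratio of 0.727, followed by chr16:46403569-46403823 with 91.6 and chr16:46417141-46417395 with 75.8. The 10 peaks were 2.49% of the Hec1A peaks of chromosome 16 and held 12.6% of their summed signal. They made up 4 of the 10 Hec1A peaks of highest signal on the chromosome. Of the 10, 8 had a clonal fold above 1, which marks tags on fewer positions than expected. Their local background, which is the signal divided by the fold over the surrounding 10000 bp, had a median of 3.45, against 0.690 for all Hec1A peaks of the chromosome. The nearest Ishikawa peak was 86.7 kb away. The command in the header of the Hec1A list names no input, although the name of the list refers to 2 inputs. The header records no Hec1A peak removed by input. Of 80046 putative peaks, 41790 were removed by local signal and 25004 as too clonal, which leaves the 13252 listed. In Ishikawa 246198 putative peaks were removed by input. Whether the tags stack at these 10 peaks in Hec1A input as well was not tested.

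On chromosome 20 the interval opened with a pair of strong Hec1A peaks, chr20:26188926-26189180 with a signal of 28.5 and chr20:26189993-26190247 with 31.1. They were the Hec1A-only peaks of highest score on that chromosome. Their focus ratios were 0.767 and 0.797, and their clonal folds 0.95 and 1.43. The other 3 Hec1A peaks of the interval had signals of 2.87, 3.84 and 3.50.

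Along the chromosomes, peaks were counted in windows of 5 Mb, and a window was compared between the lists where both together held at least 20 peaks. There were 36 such windows, of which 15 lie on chromosome 16, 13 on chromosome 20 and 8 on chromosome 22. The Hec1A share was at least 1.5 times the Ishikawa share in 14 of the 36 windows (6, 5 and 3), where 17.2% of the 581 windows of the genome passed the same threshold. The Ishikawa share was at least 1.5 times the Hec1A share in 2 windows, both on chromosome 16, and in 25.3% of all windows. Since the chromosomes were chosen for their ratio, these counts only describe where the excess lies. A ratio above 1 was found in 27 of the 36 windows (75.0%), against 262 of the 581 windows of the genome (45.1%). These were 12 of 15 on chromosome 16, 8 of 13 on chromosome 20 and 7 of 8 on chromosome 22. The 5 windows of chromosome 20 without it were those from 5 to 20 Mb and from 55 to 65 Mb, with ratios from 0.743 to 0.982.

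Hec1A peaks ranged from 3 to 63 per window with a median of 26.5, against a median of 20 over the 581 windows. Ishikawa peaks ranged from 28 to 151 with a median of 78.5, against 98 over all windows. The median ratio of the 36 windows was 1.43, and that of all windows was 0.953. The windows that were rich in one line were mostly rich in the other. Spearman's rho between the Hec1A and Ishikawa counts was 0.724 over the 15 windows of chromosome 16, 0.766 over the 13 of chromosome 20 and 0.771 over the 8 of chromosome 22. Over all 36 it was 0.770, and over the 581 windows of the genome 0.470. These are descriptions over windows of 1 pair of lists, which share the mappable length of each window.

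**Figure D2:**
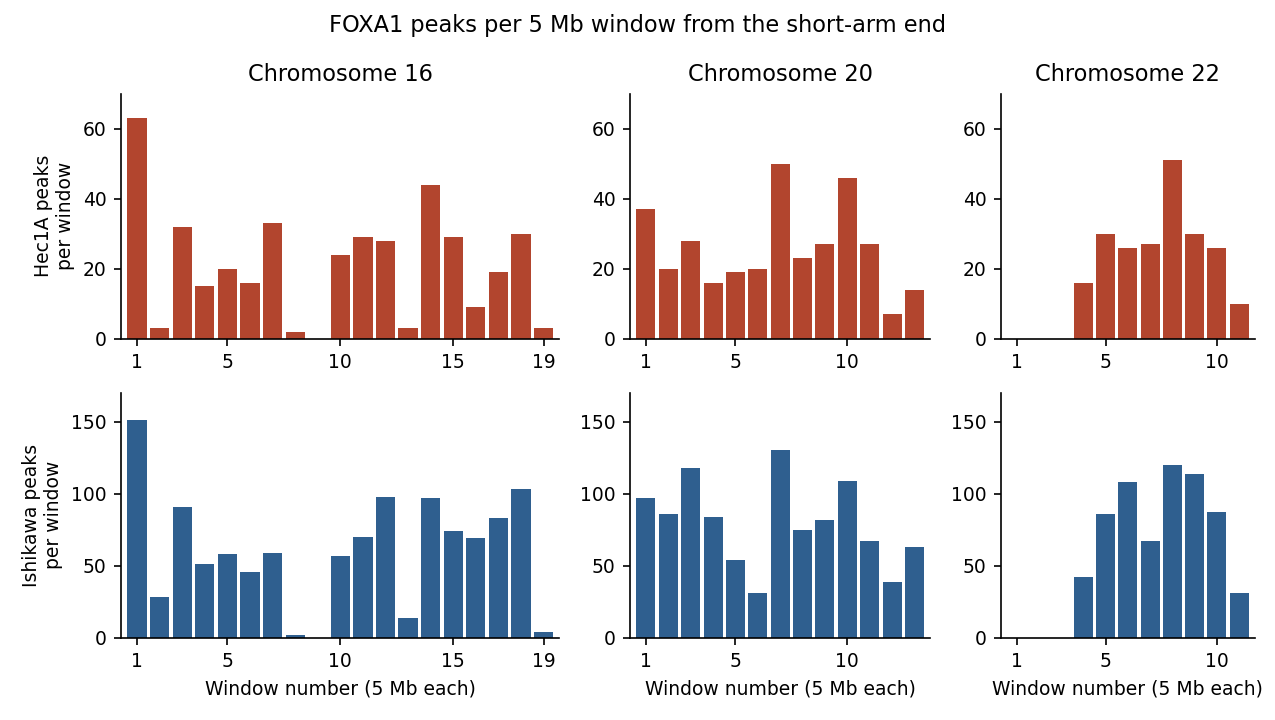
FOXA1 peaks per 5 Mb window along chromosomes 16, 20 and 22, for Hec1A (upper row, red) and Ishikawa (lower row, blue), with windows numbered from the short-arm end. Both lines peak in the first window of chromosome 16 (63 and 151 peaks), the window from 30 to 35 Mb of chromosome 20 (50 and 130) and the window from 35 to 40 Mb of chromosome 22 (51 and 120).

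The richest window of each chromosome was the same in both lines. The first 5 Mb of chromosome 16 held 63 Hec1A peaks, rank 5 of 581 windows, and 151 Ishikawa peaks, rank 17, a share ratio of 1.73 (1.29 to 2.32). In it 45 of the 63 Hec1A peaks overlapped an Ishikawa peak (71.4%, Wilson interval 59.3% to 81.1%), and 6.35% had a clonal fold above 1. On chromosome 20 the window from 30 to 35 Mb held 50 Hec1A and 130 Ishikawa peaks, a ratio of 1.59. On chromosome 22 the window from 35 to 40 Mb held 51 Hec1A and 120 Ishikawa peaks, a ratio of 1.76.

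The first window of chromosome 16 is followed by one of the poorest. The window from 5 to 10 Mb held 3 Hec1A peaks and 28 Ishikawa peaks, a ratio of 0.444, and ranked 573 of 581 in Hec1A and 563 in Ishikawa. The other window with an Ishikawa excess past the threshold was the one from 75 to 80 Mb of chromosome 16, with 9 Hec1A and 69 Ishikawa peaks and a ratio of 0.540. The poorest compared window of chromosome 20 in Hec1A was 55 to 60 Mb, with 7 Hec1A and 39 Ishikawa peaks. On chromosome 22 it was the last, 50 to 55 Mb, with 10 Hec1A and 31 Ishikawa peaks.

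Among the 36 compared windows, the 2 highest ratios belonged to windows spanning or beside the intervals without Ishikawa peaks. These intervals were chosen for their lack of Ishikawa peaks. A window that holds part of one therefore has a raised ratio by construction, and Hec1A peaks inside the interval cannot have a partner. The window from 25 to 30 Mb of chromosome 20, which spans the interval, had 20 Hec1A and 31 Ishikawa peaks, a ratio of 2.67 that ranked 3 of 581. Of its Hec1A peaks 35.0% had an Ishikawa partner, and the 5 inside the interval could not have one. The window from 30 to 35 Mb of chromosome 16 lies before the interval of that chromosome and holds no part of it. This window had 33 Hec1A and 59 Ishikawa peaks, a ratio of 2.32 that ranked 12. Its Hec1A partner share was 42.4%, and 33.3% of its Hec1A peaks had a clonal fold above 1. Its bin from 33 to 34 Mb alone held 11 of the Hec1A peaks and 1 Ishikawa peak. None of these 11 had a partner, and 72.7% had a clonal fold above 1. On the other side of that interval, the window from 45 to 50 Mb, which contains the group of 10 strong peaks, had 24 Hec1A and 57 Ishikawa peaks. There 29.2% of the Hec1A peaks had a partner and 45.8% had a clonal fold above 1.

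The 1 Mb of chromosome 20 with most Hec1A peaks stood apart by level as well. The bin from 52 to 53 Mb held 18 Hec1A and 26 Ishikawa peaks. Its median Hec1A signal was 9.68 (5.66 to 12.7), against 4.54 (4.19 to 4.89) for the other 316 Hec1A peaks of the chromosome. Its Hec1A local background was 1.39 (1.01 to 1.65), against 0.733 (0.716 to 0.759) in the rest. In Ishikawa the same bin had a median signal of 11.5 (8.44 to 22.3), against 9.80 (9.40 to 10.3) in the rest. The Ishikawa local background was 1.51 (1.05 to 2.14), against 1.32 (1.29 to 1.36), and the input tags per peak averaged 5.81, against 5.53. The Hec1A level was thus higher in peaks and background together, while the Ishikawa intervals overlap those of the rest of the chromosome. The Hec1A signal and background are not independent, since a listed peak had to exceed 4 times its local region. The part of the raised background in the Hec1A peak count was not tested.

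Of the 18 Hec1A peaks in that bin, 10 had an Ishikawa partner (55.6%, against 54.1% in the rest of the chromosome). They included the strongest Hec1A peak of the 3 chromosomes, chr20:52684230-52684484, with a signal of 145.3, a focus ratio of 0.982 and a signal 103 times its local region. The overlapping Ishikawa peak had a signal of 66.8. This peak and the bin were singled out after their values were seen. Over the 10 pairs, the Hec1A signal over the Ishikawa signal had a median log2 ratio of -1.88 (-2.97 to 0.89), against -1.77 (-2.08 to -1.63) for the other 171 pairs of the chromosome. The 5 Mb window around the bin had a Hec1A background of 1.05, rank 45 of 581. It was the highest of the 36 windows, whose median was 0.710.

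**Figure D3:**
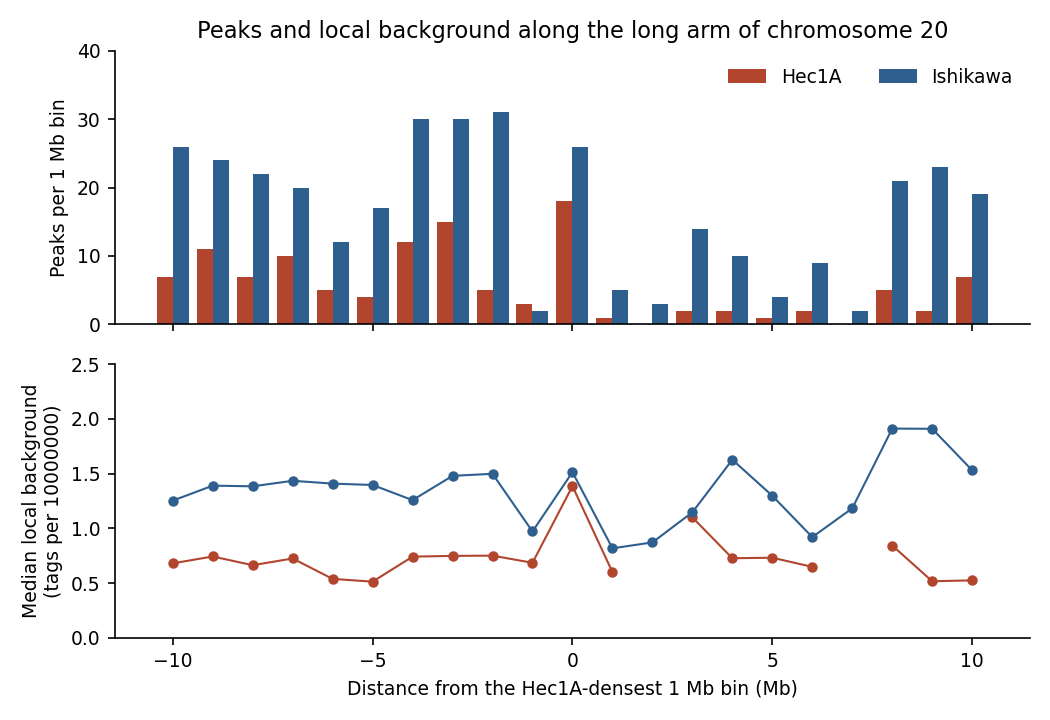
Peaks per 1 Mb bin (upper panel) and median local background in tags per 10000000 tags (lower panel) on the long arm of chromosome 20, for Hec1A (red) and Ishikawa (blue), by distance from the bin with most Hec1A peaks. At distance 0 Hec1A has 18 peaks and a background of 1.39, against 0.733 in the rest of the chromosome; bins without peaks have no background value.

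A peak was counted as shared where it overlapped a peak of the other line by at least 1 bp. Of the 952 Hec1A members, 512 had an Ishikawa partner (53.8%, 50.6% to 56.9%), against 52.8% of the Hec1A peaks elsewhere and 52.9% of the whole list. By chromosome the share was 52.0% on chromosome 16 (209 of 402, 47.1% to 56.8%), 54.2% on chromosome 20 (181 of 334, 48.8% to 59.5%) and 56.5% on chromosome 22 (122 of 216, 49.8% to 62.9%). These ranked 17, 12 and 7 of 23, and all 3 intervals include the value of the whole list.

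From the Ishikawa side, 512 of 2845 members had a Hec1A partner (18.0%, 16.6% to 19.5%), against 12.5% elsewhere (12.2% to 12.8%) and 12.8% of the whole list. The share was 18.1% on chromosome 16, 17.5% on chromosome 20 and 18.6% on chromosome 22, and these ranked 4, 5 and 3 of 23. A similar Hec1A share with fewer Ishikawa peaks per Hec1A peak gives a higher Ishikawa share by arithmetic, so this value restates the share ratio. The 3 chromosomes did not differ in it beyond their intervals (15.98% to 20.4%, 15.3% to 19.9% and 15.8% to 21.8%).

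**Figure D4:**
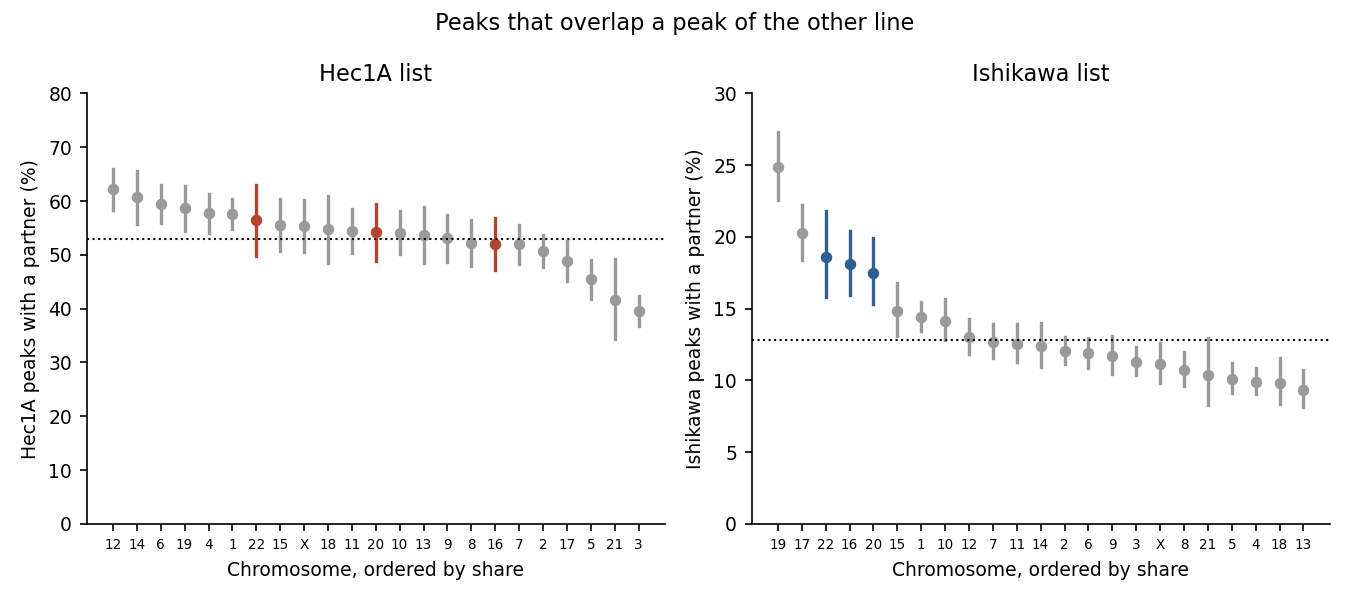
The percentage of peaks that overlap a peak of the other line, per chromosome, in the Hec1A list (left) and the Ishikawa list (right), with 95% Wilson intervals; the dotted line is the whole list. Chromosomes 16, 20 and 22 (coloured) lie around the line at 52.9% in Hec1A and above the line at 12.8% in Ishikawa, at 17.5% to 18.6%.

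Overlap followed peak strength in both lists. Among the 25% of the Hec1A list with the highest scores, 75.0% of the members had a partner (69.0% to 80.2%), and among the lowest 25% of scores 25.5% had one (19.9% to 32.0%). Elsewhere in the genome these shares were 74.2% and 22.1%. In the Ishikawa list 40.1% of the members in the top 25% had a partner (36.7% to 43.7%), against 28.9% elsewhere, and 2.89% of those in the lowest 25% (1.86% to 4.47%), against 2.38% elsewhere. The Ishikawa shares carry the same arithmetic of the share ratio as the overall share and are given as a description. Weighted by signal, shared peaks held 52.9% of the Hec1A signal on chromosome 16, 68.9% on chromosome 20 and 68.9% on chromosome 22. The value was 56.4% for the whole Hec1A list, and by chromosome it ran from 29.4% on chromosome 21 to 72.2% on chromosome 12. Without the 12 Hec1A peaks inside the interval without Ishikawa peaks, the value of chromosome 16 was 60.7%. Those 12 could have no partner by the choice of the interval, so leaving them out could only raise the value.

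Over the 3 chromosomes together, clonality separated shared from unshared peaks, as it did elsewhere. A clonal fold above 1 was found in 201 of the 952 Hec1A members (21.1%, 18.6% to 23.8%), against 29.4% elsewhere and 28.8% of the whole list. It was found in 575 of the 2845 Ishikawa members (20.2%, 18.8% to 21.7%), against 25.4% elsewhere and 25.1% of the whole list. For chromosomes 16, 20 and 22 it was 22.9%, 20.1% and 19.4% in Hec1A (ranks 14, 19 and 22 of 23). In Ishikawa it was 19.5%, 22.7% and 17.6% (ranks 21, 19 and 22). Over the other chromosomes the Hec1A share ran from 18.7% on chromosome 14 to 50.6% on chromosome 3. Where the clonal fold did not exceed 1, 60.3% of the Hec1A members overlapped an Ishikawa peak (56.8% to 63.8%), against 64.7% elsewhere (63.7% to 65.7%). Where it did, 29.4% overlapped one (23.5% to 36.0%), against 24.3% elsewhere (22.9% to 25.7%). That share was 20.7% on chromosome 16, 34.3% on chromosome 20 and 40.5% on chromosome 22. On chromosome 22 its interval (27.0% to 55.5%) overlaps that of the Hec1A peaks with a lower clonal fold (60.3%, 52.9% to 67.3%). Peaks with a clonal fold that did not exceed 1 made up 78.9% of the Hec1A members, against 70.6% elsewhere.

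Members without a partner were not all far from the other line. Of the 440 Hec1A members without one, 33.4% lay within 10 kb of an Ishikawa peak, against 37.3% elsewhere, and the median distance was 18.4 kb, against 15.6 kb. Of the 2333 Ishikawa members without one, 12.4% lay within 10 kb of a Hec1A peak, against 9.01% elsewhere, at a median distance of 52.7 kb, against 78.8 kb. The chromosomes were chosen for a higher Hec1A share, so they have fewer Ishikawa peaks per Hec1A peak. A nearer Hec1A peak and a farther Ishikawa peak follow in part from that choice. Whether the distances differ beyond it was not tested. Peaks of the same list also lay closer together. In Hec1A 19.2% of the members had another Hec1A peak within 10 kb, against 15.6% elsewhere, and in Ishikawa 37.1% had another Ishikawa peak, against 33.8%. On chromosome 22 these shares were 21.8% in Hec1A (rank 2) and 40.9% in Ishikawa (rank 1). The Hec1A shares also carry the higher number of Hec1A peaks per Mb on these chromosomes, and its part was not tested.

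Peak signal was low on the 3 chromosomes in Hec1A and close to the rest in Ishikawa. The median Hec1A signal was 4.19 on chromosome 16 (3.91 to 4.54, rank 21 of 23), 4.61 on chromosome 20 (4.26 to 5.03, rank 19) and 4.05 on chromosome 22 (3.70 to 4.47, rank 22). Together it was 4.33 (4.19 to 4.54), against 5.03 elsewhere (4.96 to 5.03). In Ishikawa the medians were 9.11 (8.73 to 9.72), 9.83 (9.45 to 10.4) and 9.51 (9.02 to 10.4), with ranks 20, 6 and 15, and 9.51 together (9.22 to 9.86), against 9.69 elsewhere. The Hec1A medians of the 3 chromosomes overlap each other in their intervals, while those of chromosomes 16 and 22 lie wholly below the value elsewhere. The highest signals were 95.2, 145.3 and 107.9 in Hec1A and 359.6, 267.5 and 339.0 in Ishikawa, on chromosomes 16, 20 and 22.

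The lower Hec1A signal went with a lower local background. That background is the signal divided by the fold over the local region, so at a similar fold it restates the signal. The median background was 0.690 on chromosome 16, 0.743 on chromosome 20 and 0.691 on chromosome 22 in Hec1A, ranks 22, 19 and 21, and 0.710 together (0.690 to 0.726), against 0.821 elsewhere (0.813 to 0.828). In Ishikawa it was 1.26, 1.32 and 1.27, and 1.29 together (1.27 to 1.31), against 1.34 elsewhere. The median fold over the local region was 5.73, 5.98 and 5.61 in Hec1A, against 5.71 for the whole list, and 7.16, 6.98 and 7.17 in Ishikawa, against 6.93. The chromosome 22 value in Hec1A ranked 18 of 23. Peaks had to exceed 4 times the local region in both lists, which fixes the lower end of these folds. Over the pooled input, which was used for Ishikawa, the median fold was 7.39, 7.61 and 8.06, against 7.80 for the whole list.

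The focus ratio is the fraction of a peak's tags that lie on the side of the peak centre expected for their strand, so that a higher value means a better defined centre. Its median in Hec1A was 0.803 on chromosome 16 (0.790 to 0.816, rank 22 of 23), 0.823 on chromosome 20 (0.811 to 0.838) and 0.815 on chromosome 22 (0.800 to 0.833), against 0.824 elsewhere (0.821 to 0.825). In Ishikawa it was 0.827 (0.821 to 0.834), 0.832 (0.826 to 0.841) and 0.832 (0.825 to 0.840), against 0.828 elsewhere (0.827 to 0.829). The Hec1A value of chromosome 16 was the one of the 6 whose interval did not reach the value elsewhere. Its short-arm side had 0.790 and its long-arm side 0.816 in Hec1A. A focus ratio of at least 0.9 was reached by 16.4%, 20.7% and 16.7% of Hec1A members and by 19.3%, 19.6% and 20.2% of Ishikawa members, against 17.5% and 18.2% elsewhere.

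**Figure D5:**
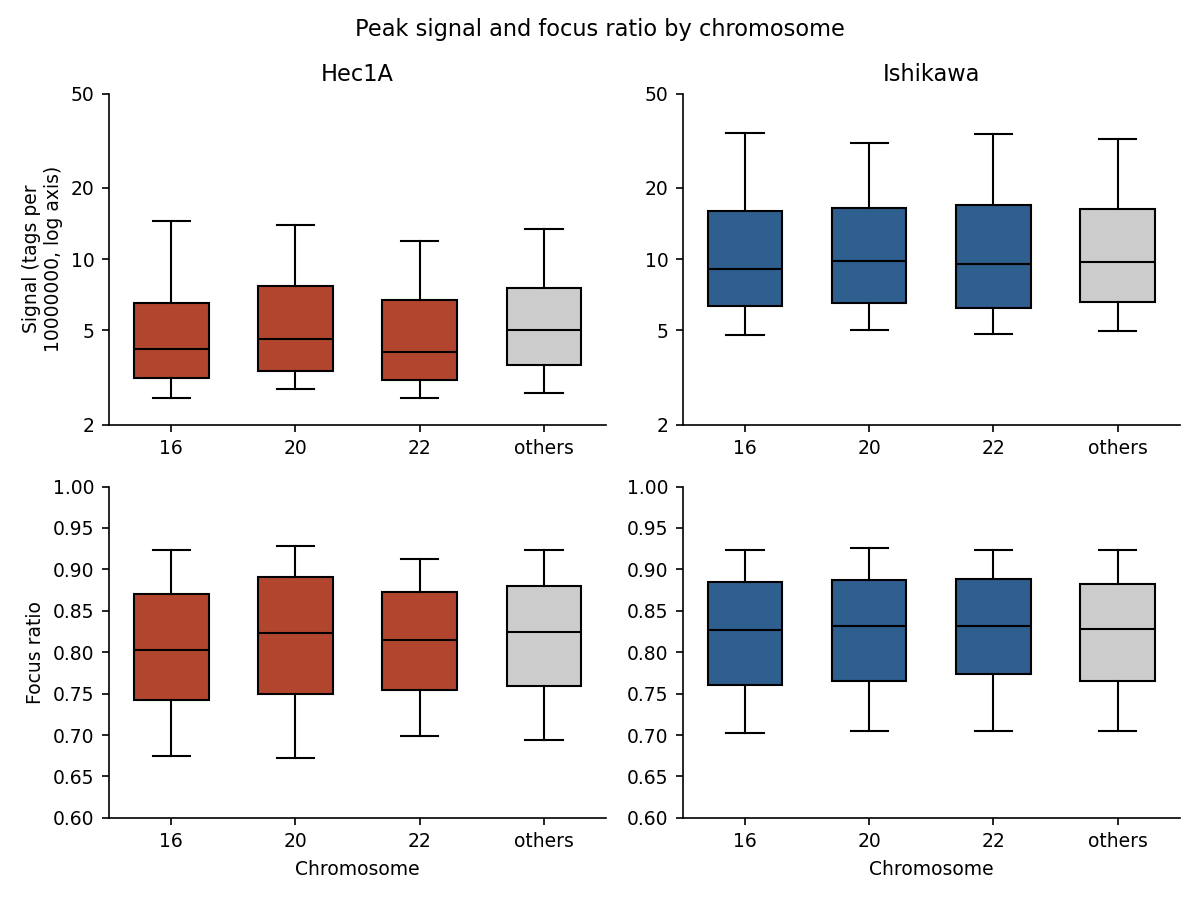
Peak signal in tags per 10000000 tags (upper row, log axis) and focus ratio (lower row) for Hec1A (left) and Ishikawa (right) on chromosomes 16, 20 and 22 (coloured) and on all other chromosomes (grey). Boxes show the median and quartiles and whiskers the 10th and 90th percentiles; the Hec1A medians of 4.19, 4.61 and 4.05 lie below 5.03 elsewhere.

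Over the 3 chromosomes together, shared peaks had a higher median signal and focus ratio than unshared ones in both lists. The median Hec1A signal was 4.89 in shared members (4.61 to 5.31) and 3.84 in unshared members (3.63 to 4.05). In Ishikawa it was 18.45 in shared members (16.7 to 20.3) and 8.58 in unshared members (8.35 to 8.87). The median focus ratio in Hec1A was 0.826 in shared members (0.816 to 0.840), against 0.7985 in unshared ones (0.783 to 0.812), and in Ishikawa it was 0.875 in shared members (0.866 to 0.890), against 0.822 in unshared ones (0.818 to 0.826). On chromosome 16 the Hec1A focus ratios of shared and unshared peaks were 0.812 (0.791 to 0.826) and 0.796 (0.780 to 0.816), and on chromosome 22 they were 0.834 (0.806 to 0.859) and 0.800 (0.773 to 0.821). The intervals overlap on both chromosomes. The Hec1A signal intervals of shared and unshared peaks also overlap on chromosome 22, with 3.91 to 5.31 and 3.15 to 4.19.

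In the 512 pairs the Hec1A signal was mostly the lower of the 2. The median log2 of Hec1A over Ishikawa was -1.85 on chromosome 16 (-1.99 to -1.70), -1.77 on chromosome 20 (-2.08 to -1.63) and -1.89 on chromosome 22 (-2.12 to -1.54). Together it was -1.85 (-1.93 to -1.71), against -1.82 in the pairs elsewhere (-1.85 to -1.78). Signals are per 10000000 tags of each pool, but the peaks of the lists differ in width. The level of this ratio also holds that difference. Listed peaks held 1598933 of the 143055568 Hec1A tags and 33199775 of the 343739762 Ishikawa tags. Scaling to the whole pool does not remove this difference, and its part in the ratio was not tested. Hec1A was the higher line in 5, 12 and 6 pairs, which is 23 of 512 (4.49%), against 6.58% elsewhere. The peak centres lay a median of 13, 14 and 16 bp apart.

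The shared peaks of best mean rank in the 2 lists differed widely in how far the Ishikawa signal exceeded the Hec1A signal. At chr16:68778727-68778981 the Hec1A signal was 38.2 and the Ishikawa signal 359.6, the highest Ishikawa signal of the 3 chromosomes, with a focus ratio of 0.985 in both. At chr16:87421889-87422143 it was 33.1 in Hec1A and 183.4 in Ishikawa. On chromosome 20, chr20:48983250-48983504 was nearly level, with 116.9 in Hec1A and 145.6 in Ishikawa, a log2 ratio of -0.32. The next on that chromosome, chr20:44992539-44992793, had 15.2 in Hec1A and 150.9 in Ishikawa. On chromosome 22, chr22:30021571-30021825 had 43.4 in Hec1A and 163.6 in Ishikawa, and chr22:36424788-36425042 had 21.2 in Hec1A and 251.4 in Ishikawa. All 6 had focus ratios of at least 0.9 in both lines.

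The Hec1A-only peaks of highest score differed by chromosome. Those of chromosomes 16 and 20 were among the Hec1A peaks in the intervals without Ishikawa peaks described above. On chromosome 22 they were chr22:41652354-41652608, with a signal of 14.9, a focus ratio of 0.927 and a clonal fold of 0.64, and chr22:18879871-18880125, with 15.7, 0.961 and 1.67. The first of these had its nearest Ishikawa peak 32.0 kb away.

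The Ishikawa-only peaks of highest score are given with their Ishikawa signals, which are on another pool and peak width than those of Hec1A. On chromosome 16 they were chr16:2085674-2086026, with an Ishikawa signal of 187.6 and a fold over input of 181.5, and chr16:56406908-56407260, with 162.3 and 69.8. On chromosome 20 they were chr20:30828011-30828363, with 267.5 and 103.6, and chr20:31465276-31465628, with 189.5 and 56.4. On chromosome 22 they were chr22:28425096-28425448, with 339.0 and 187.6, and chr22:45809398-45809750, with 266.6 and 114.7. Their focus ratios ran from 0.915 at the first chromosome 22 site to 0.985 at the second. The nearest Hec1A peak was between 28.5 and 142.8 kb away, so that each lacked a called Hec1A peak in the neighbourhood as well as at the site. A site without a listed peak can still hold tags below the calling thresholds, which the lists do not show.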

How the data were processed

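ChIP-seq peak lists of FOXA1 in Hec1A and Ishikawa were used, 1 list per line. The submitters' processing notes name the build hg19, HOMER 4.7.2, SAMtools 1.3.1 and Bowtie 1.1.2. The authors pooled the ChIP tags of a line and called peaks on the pool with findPeaks of HOMER, per the file headers. The call required a false discovery rate of 0.001, a fold over the surrounding 10000 bp of 4 and, for Ishikawa, a fold over the pooled input of 4. The Hec1A command names no input and its header records no peaks removed by input, although the name of the list refers to 2 inputs. The pools were of 143055568 tags in Hec1A and 343739762 in Ishikawa. Both library kits, TruSeq and ThruPLEX, are mixed in each pool.

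The deposited signal is in tags per 10000000 tags, per the file headers. The focus ratio is a fraction and the score is the caller's score, both as deposited. The fold over the local region, the fold over input and the clonal fold are ratios made by the authors.

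Members, lists and measures were chosen with earlier results of these data known. From the files, peaks per chromosome, arm, 5 Mb window and 1 Mb bin were counted. Partners were found by an overlap of at least 1 bp. Wilson intervals were used for shares, log-method intervals for ratios of shares, and order-statistic intervals for medians, at 95%. No test was run, because each line is 1 pooled list. Named peaks were, per chromosome, the 2 shared pairs of best mean rank and the 2 peaks of each line without a partner of highest score, and windows with most and fewest peaks. The counting and overlap steps were tested on simulated data. Python 3.11.15, pandas 2.3.3, numpy 2.4.6, scipy 1.17.1 and matplotlib 3.10.9 were used. Alternatives were an Ishikawa fold over input of at least 8, a local fold of at least 8, a clonal fold of 1 or less, lists of equal length, other overlap rules, peak-poor regions left out and other windows. Genes, motifs and sequences at the peaks were not analysed here, since no hg19 reference was used.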

Additional observations from a re-analysis of the deposited data

How the results depend on the processing

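Of 97 alternative values, 63 stayed within the 95% interval of the main value, or for window counts within 1.5 times it, and 34 did not. The share ratio stayed above 1 in all 15 alternatives, and its interval did so in 14; the exception was chromosome 22 at a local fold of at least 8, with 1.25 (0.936 to 1.67). The Hec1A partner share on chromosomes 16, 20 and 22 was 37.6%, 38.6% and 40.7% against Ishikawa peaks with a fold over input of at least 8 (whole list 37.5%). It was 27.9%, 32.3% and 31.0% with lists of equal length (29.9%). On chromosomes 16 and 20 it was 61.9% and 64.4% at a local fold of at least 8 (60.3%), and on chromosome 16 it was 58.7% where both lists kept no clonal fold above 1 (59.7%). The Ishikawa partner share was 28.9%, 26.7% and 26.6% at the stricter input fold (whole list 18.6%), 40.1%, 42.4% and 39.2% at equal length (29.9%), and 14.4%, 15.2% and 11.6% at a local fold of at least 8 (9.44%), where the chromosome 22 interval (8.33% to 15.9%) includes the whole-list value. At that local fold the median focus ratio was 0.893, 0.898 and 0.886 in Hec1A and 0.8725, 0.882 and 0.8735 in Ishikawa. The median signal was then 9.93, 10.6 and 8.915 in Hec1A and 17.1, 17.3 and 18.0 in Ishikawa. Among peaks with no clonal fold above 1 the Ishikawa median signal was 10.3, 10.85 and 10.95. With 10 Mb windows, 8 of 21 passed a ratio of 1.5 (38.1%, against 12.3% of all such windows), since there are fewer windows. With windows shifted by 2.5 Mb, 19 of 38 passed, against 17.6% of all. The stricter folds and equal lengths keep fewer peaks by construction; for the clonal split the cause was not tested. No paired analysis was possible because pooling left 1 list per line, and for the same reason no library could be left out.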

Other observations

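The pairs at both ends of the signal ratio, chosen after their values were seen, show how far single sites depart from the median. Hec1A was highest relative to Ishikawa on chromosome 16 at chr16:69430489-69430743, with a Hec1A signal of 66.6 and an Ishikawa signal of 24.7 (log2 ratio 1.43). On chromosome 20 it was highest at chr20:22715664-22715918, with 8.18 in Hec1A and 3.05 in Ishikawa (1.42), and at chr20:49378282-49378536, with 46.1 in Hec1A and 17.2 in Ishikawa (1.42). On chromosome 22 it was highest at chr22:21132085-21132339, with 24.3 in Hec1A and 7.88 in Ishikawa (1.62), where the Hec1A clonal fold was 1.40. At the other end, chr16:16242600-16242854 had 2.66 in Hec1A and 254.7 in Ishikawa (-6.58), and chr20:10635209-10635463 had 4.05 in Hec1A and 258.5 in Ishikawa (-6.00). The lowest pair of chromosome 22, chr22:25796879-25797133, had 2.87 in Hec1A and 112.1 in Ishikawa (-5.29).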
